A study of Sus scrofa with 6 samples.

Results

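The kinesins, centromere proteins and mitotic regulators described here were taken by name from the table of 10915 genes with values: kinesins (symbols starting with KIF and a number, or KIFC), centromere proteins (CENP and a letter), the checkpoint genes BUB1 and BUB3, and TOP2A, CCNA2, CCNB1, CCNB2, AURKA, AURKB, TTK and MKI67. This gave 52 rows under 51 symbols. They were grouped by textbook role into 13 mitotic kinesins, 11 centromere proteins, 3 checkpoint genes and 8 rows of cyclins, kinases and proliferation markers, together 35 mitotic rows, set against 11 transport kinesins. The remaining rows were 4 other KIF symbols (KIF7, KIF12, KIF24 and KIF1BP) and 2 CENP symbols with other known roles (CENPJ, a centriole protein, and CENPV). PLK1 was also on the list and is not analysed here.

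Kinesins are motor proteins that walk along microtubules. Some carry vesicles, organelles and other cargo through the cytoplasm, and others build the mitotic spindle, move chromosomes on it or help to cut the dividing cell. Centromere proteins mark the site on each chromosome where spindle microtubules attach, and the spindle checkpoint holds the cell before anaphase until all chromosomes are attached. Many mitotic genes are transcribed mainly from G2 into M phase, so their transcripts in a culture depend on how many cells are dividing, whereas transport kinesins serve cells at all stages.

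RNA was sequenced from primary cultures of endometrial epithelial cells, which line the uterus, taken from slaughterhouse pigs (Sus scrofa) and used at passage 3. The exosome group (3 libraries) was cultured for 48 h with 10 µg per well of vesicles precipitated from the sperm-rich fraction of boar seminal fluid. The control group (3 libraries) had no exosomes. No genotype, strain or age is given for the animals, and no label ties a library to a uterus or a well, so the p-values rest on a spread between libraries that could be purely technical. Values are FPKM, in which fragment numbers are divided by transcript length and by the size of the library, and changes are exosome minus control on log2(FPKM + 1).

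FPKM sums ran from 721273 to 732922 in the controls and from 690258 to 711250 with exosomes, and depth is unknown because no counts were given. Epithelial markers were abundant: 9 of 12 symbols searched were found, among them CD24, KRT8 and KRT19 at log2 changes of -0.25, -0.12 and -0.13, with a summed level of 13591 to 14022 FPKM in the controls and 11634 to 12814 with exosomes. Of these 9 rows 8 had a negative change and 6 were lower at an unadjusted p under 0.05, beside 7.5% of all genes tested. Their median log2 change was -0.21, against 0.11 for the mitotic rows. Stromal markers (5 of 11 symbols found, mostly CD90, then VIM and COL1A2) summed to 2788 to 3042 and 2274 to 2494 FPKM, with log2 changes of -0.33, -0.14 and -0.10 for those 3. Of the leukocyte markers 4 rows were found for 8 symbols (LCP1, CD68 in 2 rows, and CD14), summing to 152 to 160 and 118 to 153 FPKM. The endothelial list gave 1 of 6 (KDR, below 2 FPKM in each library), and none of 11 sperm symbols had a row. PTPRC, the common leukocyte marker, is not analysed here. Their part in the results on dividing-cell genes was not tested. In bulk RNA, more dividing cells and more transcript per dividing cell cannot be told apart.

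Most mitotic genes were slightly higher after exosome treatment, by a median log2 change of 0.11 over the 35 rows, of which 32 had a positive change. The median was -0.00229 over the 10846 genes tested, of which 49.2% were positive. None of the 52 rows passed the test over all genes (limma, adjusted p from 0.301 to 0.994), as none of the 10846 genes did (0.0%). At an unadjusted p under 0.05, 9 of the 35 mitotic rows were higher (25.7%) and 0 lower, beside 5.06% higher and 7.5% lower over all genes tested. In 12 of the 35 rows (34.3%) every exosome library lay above every control library, beside 8.29% of all genes tested, and 0 rows lay the other way round, beside 10.4%. These shares describe the list. Its genes were chosen with earlier results of these data known, and they moved together from library to library, so they are not independent results.

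**Figure D1:**
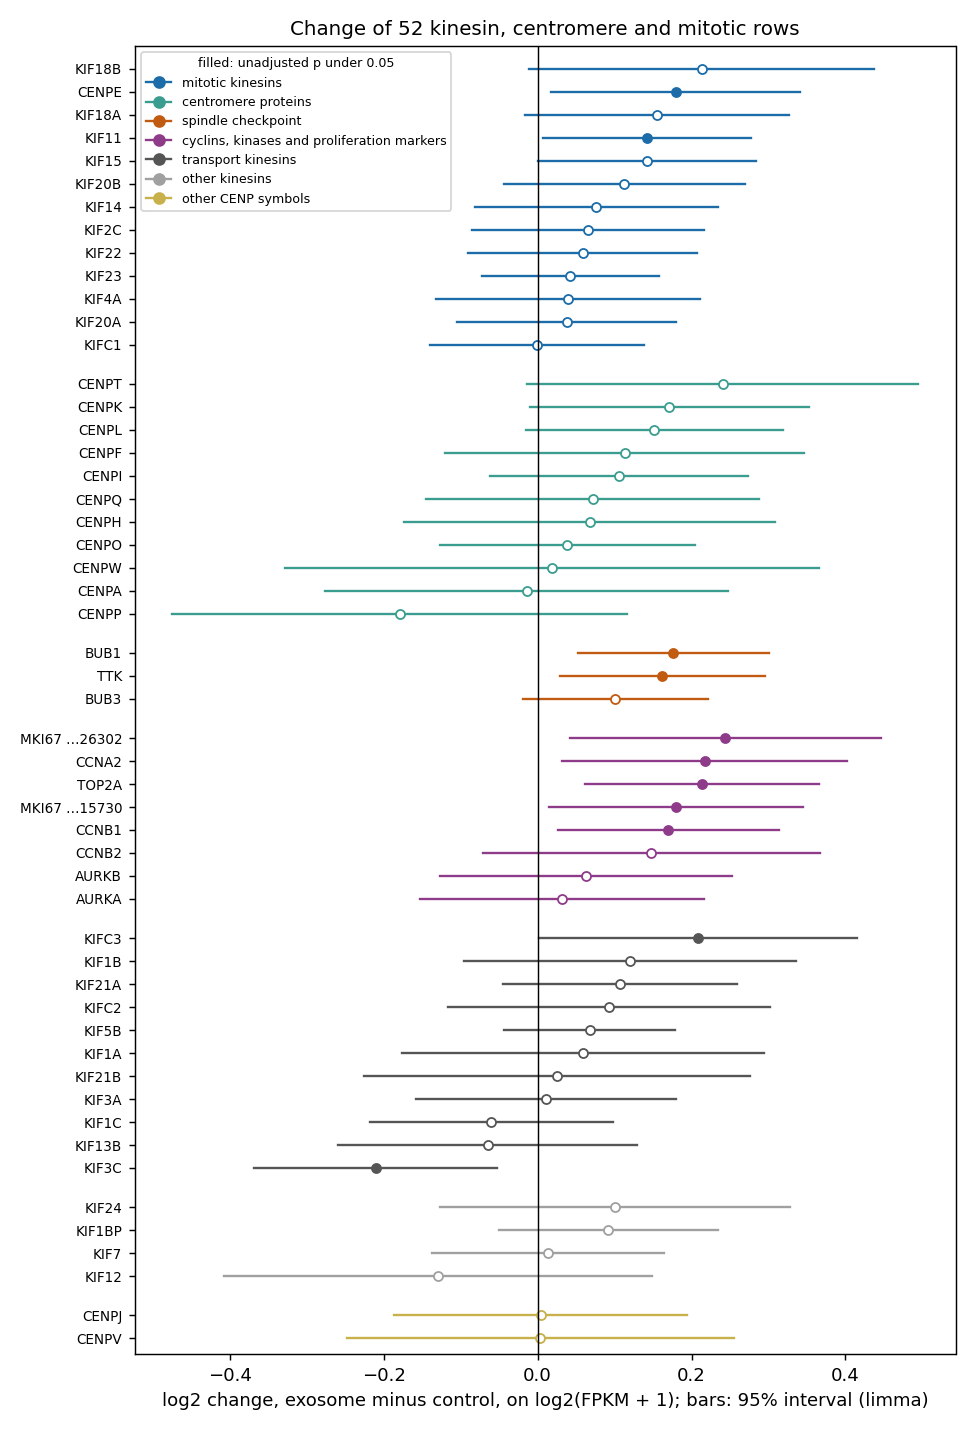
Log2 change (x axis, exosome minus control) of each of the 52 rows with its 95% interval from limma, grouped by role; filled points had an unadjusted p under 0.05. Of the 35 mitotic rows 32 lie right of 0, while the 11 transport kinesins run from -0.21 (KIF3C) to 0.21 (KIFC3).

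Cyclins and the cyclin-dependent kinase they switch on drive entry into mitosis, topoisomerase II alpha untangles the sister chromatids, and Ki-67 coats mitotic chromosomes. All 8 rows of this group had a positive change, with a median of 0.18 on the log2 scale. CCNB1, cyclin B1 and the most abundant of the 52 rows, was at 129, 124 and 118 FPKM in control replicates 1, 2 and 3 and at 149, 131 and 137 FPKM in exosome replicates 1, 2 and 3. The lowest exosome library was just above the highest control library. The log2 change was 0.17 (95% interval 0.03 to 0.31, adjusted p = 0.341 in limma).

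CCNA2, cyclin A2, which acts in S phase and early mitosis, was at 49.6, 46.1 and 45.4 FPKM in the controls and 56.7, 48.8 and 59.7 with exosomes. The groups overlapped through exosome replicate 2, which lay below control replicate 1. The log2 change was 0.22 with an SE of 0.08 (adjusted p = 0.342 in limma). Without exosome replicate 2 it was 0.30 and passed (adjusted p = 0.0487 in limma), the 1 row of the 52 to do so, in a fit where 2.74% of all genes passed.

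TOP2A, topoisomerase II alpha, was at 48.1, 46.3 and 44.6 FPKM in the controls and 58.5, 52.9 and 50.5 with exosomes. The groups did not overlap, and the log2 change was 0.21 (95% interval 0.06 to 0.37, adjusted p = 0.302 in limma). CCNB2, cyclin B2, had a log2 change of 0.15 between means of 27.0 ± 2.36 and 30.1 ± 3.38 FPKM (SD, n = 3 per group). The Aurora kinases, AURKA of the spindle poles and AURKB of the chromosomal passenger complex, stood at the low end of the group, with log2 changes of 0.03 and 0.06 and intervals of -0.15 to 0.22 and -0.13 to 0.25.

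MKI67, the proliferation marker Ki-67, was listed for 2 identifiers whose values differed. The row ENSSSCG00000026302, which has no symbol in the reference table, was at 22.5, 22.4 and 22.5 FPKM in the controls and 30.5, 26.8 and 23.6 with exosomes. The control libraries were nearly equal, the exosome libraries spread above all of them, and the log2 change was 0.24 (95% interval 0.04 to 0.45, adjusted p = 0.336 in limma). Without exosome replicate 1 it was 0.15. The row ENSSSCG00000015730 is listed under NIFK in the reference table, the gene of a nucleolar protein that binds Ki-67, so its 88.0 ± 6.91 FPKM in the controls and 99.7 ± 6.23 with exosomes (SD, n = 3 per group) may not be Ki-67 at all. Leaving this row out of the mitotic group left 34 rows with a median log2 change of 0.11. Of these 34 rows 8 were higher at an unadjusted p under 0.05 (23.5%), beside 5.06% of all genes tested.

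**Figure D2:**
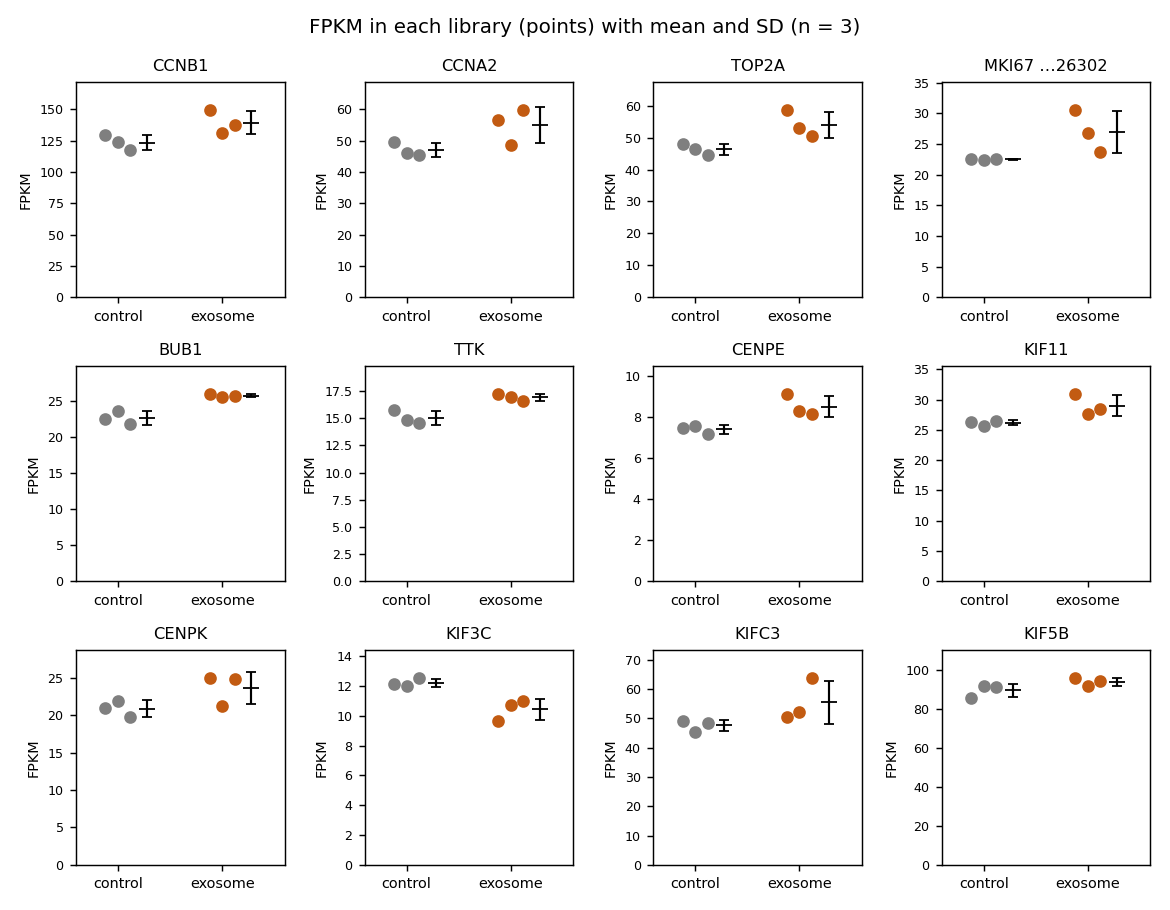
FPKM (y axis, from 0) of 12 genes in each control and exosome library, with the mean and SD of each group (n = 3). The groups do not overlap for CCNB1, TOP2A, BUB1, TTK, CENPE, KIF11, KIF3C, KIFC3 and the MKI67 row shown, and they overlap for CCNA2, CENPK and KIF5B. These 12 are a selection. Over all 52 rows 13 were higher and 1 lower without overlap, beside 8.29% and 10.4% of all genes tested.

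In all 3 checkpoint genes every exosome library lay above the controls, beside 8.29% of all genes tested. TTK phosphorylates the outer kinetochore to start the checkpoint signal, and BUB1 and BUB3 are recruited there. BUB1 was at 22.5, 23.7 and 21.8 FPKM in the controls and 25.9, 25.5 and 25.7 with exosomes. Every exosome library lay above the controls, and the log2 change was 0.18 (95% interval 0.05 to 0.30, adjusted p = 0.301 in limma), the lowest adjusted p of the 52 rows. TTK was at 15.7, 14.8 and 14.5 FPKM in the controls and 17.2, 17.0 and 16.6 with exosomes, again with no overlap (log2 change 0.16, adjusted p = 0.336 in limma). BUB3, the most abundant of the 3, was at 63.5, 60.6 and 59.1 FPKM in the controls and 64.9, 63.5 and 68.2 with exosomes. The lowest exosome value lay just above the highest control value, and the log2 change was 0.10 (adjusted p = 0.461 in limma).

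Among the 13 mitotic kinesins 12 had a positive change, with a median log2 change of 0.08 and a range from -0.00129 to 0.21. In 5 of them (CENPE, KIF11, KIF15, KIF18A and KIF14) every exosome library was above the controls, beside 8.29% of all genes tested, and 2 (CENPE and KIF11) were higher at an unadjusted p under 0.05, beside 5.06%. CENPE, a kinetochore motor that brings chromosomes to the spindle equator, was at 7.44, 7.57 and 7.14 FPKM in the controls and 9.10, 8.27 and 8.14 with exosomes. Exosome replicate 1 was the highest of the 6 libraries, and the log2 change was 0.18 (95% interval 0.02 to 0.34, adjusted p = 0.365 in limma).

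KIF11, the motor that pushes the spindle poles apart, was at 26.3, 25.7 and 26.4 FPKM in the controls and 30.9, 27.6 and 28.4 with exosomes. KIF15, which can share that work, was at 11.6, 11.4 and 11.04 FPKM in the controls and 13.2, 12.2 and 12.5 with exosomes. Both had a log2 change of 0.14, with adjusted p-values of 0.382 and 0.398 in limma. KIF18B, which trims the ends of astral microtubules, was at 7.99, 6.78 and 7.47 FPKM in the controls and 9.90, 7.86 and 8.54 with exosomes. Exosome replicate 2 lay inside the control range. The log2 change was 0.21 (adjusted p = 0.413 in limma) and 0.13 without exosome replicate 1.

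The most abundant mitotic kinesins differed little. KIF23, a motor of the central spindle needed for cytokinesis, was at 48.0, 47.4 and 46.2 FPKM in the controls and 50.3, 48.9 and 46.8 with exosomes. KIF20A, which acts at the same place late in mitosis, was at 44.6, 43.8 and 41.6 FPKM in the controls and 46.6, 45.7 and 41.4 with exosomes. In both genes the groups overlapped, and both log2 changes were 0.04, with intervals of -0.07 to 0.16 and -0.10 to 0.18. With 1 library left out KIF23 ran from 0.02 (without exosome replicate 1) to 0.07 (without exosome replicate 3), and KIF20A from 0.00489 to 0.09 without the same libraries. Of the others, KIF20B, KIF14, KIF2C, KIF22 and KIF4A had log2 changes of 0.11, 0.08, 0.07, 0.06 and 0.04. KIFC1, a minus-end motor that focuses spindle poles, was at 17.4 ± 0.765 and 17.3 ± 0.625 FPKM (SD, n = 3 per group), with a log2 change that turned positive under each of the 3 other scalings. A separate row named KIFC1 by the reference table only was at 12.5, 11.8 and 11.8 FPKM in the controls and 12.4, 13.1 and 12.1 with exosomes, so the reads of this gene may be split between 2 identifiers.

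Centromere proteins were the most mixed of the mitotic groups. Of the 11 rows 9 had a positive change, with a median of 0.07 on the log2 scale. At an unadjusted p under 0.05 there were 0 in either direction, beside 5.06% higher and 7.5% lower of all genes tested. CENPT, which links centromeric chromatin to the microtubule-binding NDC80 complex, was at 16.6, 12.9 and 12.9 FPKM in the controls and 17.9, 15.0 and 17.4 with exosomes. Control replicate 1 lay within the exosome range, and the log2 change was 0.24, with a wide interval of -0.01 to 0.49 (adjusted p = 0.414 in limma). CENPK, which works in a complex with CENPH and CENPI, was at 20.9, 21.9 and 19.7 FPKM in the controls and 24.97, 21.2 and 24.8 with exosomes. Exosome replicate 2 again lay among the controls, and the log2 change was 0.17 (adjusted p = 0.415 in limma).

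CENPL, another subunit of the inner kinetochore, was the 1 centromere protein with no overlap. As 1 of 11 rows (9.09%) this was near the 8.29% of all genes tested that were higher without overlap. CENPL was at 5.13, 5.07 and 5.03 FPKM in the controls and 5.43, 5.73 and 6.11 with exosomes (log2 change 0.15, adjusted p = 0.424 in limma). CENPI was at 17.8, 15.7 and 16.5 FPKM in the controls and 18.0, 19.2 and 16.8 with exosomes, where exosome replicate 3 lay within the control range (log2 change 0.11, or 0.06 without exosome replicate 2, adjusted p = 0.578 in limma with all libraries). CENPW, the partner of CENPT and the most abundant of the group, was at 44.1, 39.6 and 45.0 FPKM in the controls and 57.0, 37.6 and 38.2 with exosomes. It was high in exosome replicate 1 alone, and its log2 change of 0.02 became -0.17 without that library. CENPA, the histone variant that marks centromeres, had a log2 change of -0.01 (95% interval -0.28 to 0.25), which was 0.03 with libraries scaled to equal FPKM sums. CENPP was the lowest of the group at -0.18 (95% interval -0.47 to 0.12). The remaining 4, CENPF, CENPQ, CENPH and CENPO, had log2 changes of 0.11, 0.07, 0.07 and 0.04.

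Of the 11 transport kinesins 8 had a positive and 3 a negative change, with a median of 0.06 on the log2 scale, and at an unadjusted p under 0.05 there was 1 in each direction, beside 5.06% higher and 7.5% lower of all genes tested, which for 11 genes is near the background. KIF3C, a kinesin-2 subunit, was at 12.1, 11.98 and 12.5 FPKM in the controls and 9.63, 10.7 and 10.96 with exosomes. Every exosome library lay below every control, and the log2 change was -0.21 (95% interval -0.37 to -0.05, adjusted p = 0.313 in limma). Among the 52 rows KIF3C was the 1 with this pattern, beside 10.4% of all genes tested. Of the 11 transport kinesins 1 was thus lower and 1 (KIFC3) higher without overlap. For 11 genes this is near the background of 10.4% lower and 8.29% higher. KIF3A, its kinesin-2 relative, was at 8.20 ± 0.167 and 8.28 ± 0.644 FPKM (SD, n = 3 per group; log2 change 0.01).

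KIFC3, a minus-end motor known from epithelial junctions and apical transport, was at 49.1, 45.4 and 48.2 FPKM in the controls and 50.4, 51.998 and 63.7 with exosomes. The groups did not overlap, but exosome replicate 3 stood far above the other 2. The log2 change of 0.21 (adjusted p = 0.393 in limma) was 0.10 without that library. KIF5B, the ubiquitous conventional kinesin heavy chain, was at 85.9, 92.0 and 91.3 FPKM in the controls and 96.0, 92.0 and 94.3 with exosomes (log2 change 0.07, 95% interval -0.04 to 0.18, and 0.04 without control replicate 1). KIF1C, a kinesin-3 that carries vesicles, was at 90.4, 91.0 and 89.8 FPKM in the controls and 83.2, 96.4 and 81.2 with exosomes. Here exosome replicate 2 was the highest of the 6 libraries and the other 2 exosome libraries the lowest, and the log2 change of -0.06 was -0.14 without exosome replicate 2 and -0.01 without exosome replicate 3.

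KIF21A, which slows microtubule growth at the cell edge, was counted with the transport kinesins. It was at 20.1, 23.2 and 22.3 FPKM in the controls and 24.1, 23.0 and 23.6 with exosomes, and the groups overlapped. The log2 change was 0.11, or 0.05 without control replicate 1 (adjusted p = 0.537 in limma with all libraries). KIF1B, KIFC2 and KIF21B had log2 changes of 0.12, 0.09 and 0.03, and KIF13B was at -0.06. KIF1A, a motor best known from neurons, was at 1.05 ± 0.0648 and 1.14 ± 0.146 FPKM (SD, n = 3 per group), the lowest level among the 52 rows, near the floor of 1 FPKM for testing. On FPKM, which is per length, transport kinesins spanned 1.10 to 91.9 (mean over 6 libraries), mitotic kinesins 5.17 to 47.9, centromere proteins 5.42 to 43.6, checkpoint genes 15.99 to 63.3 and the cyclin group 24.7 to 131.

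**Figure D3:**
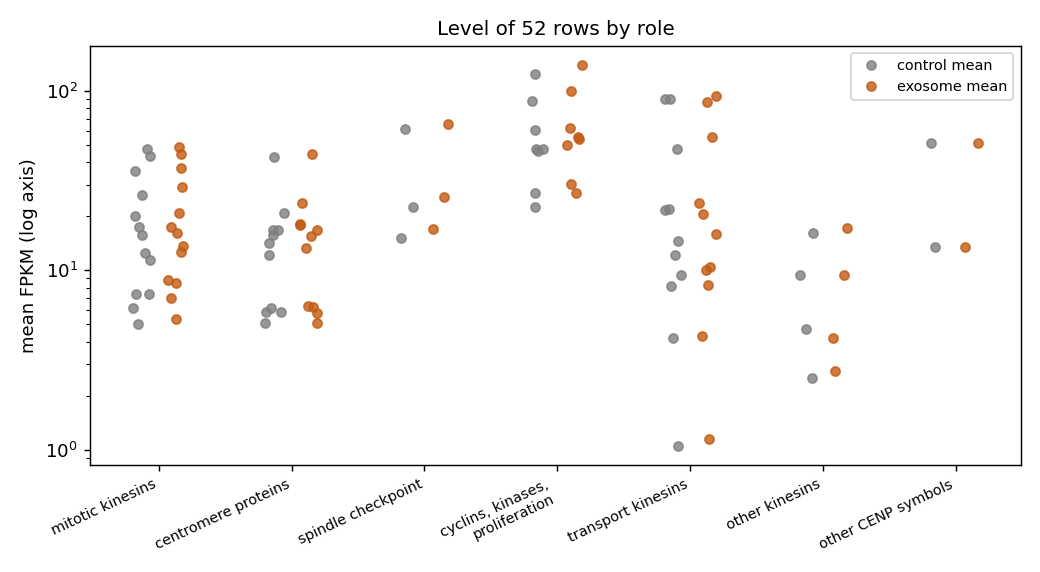
Mean FPKM (log axis) of the 52 rows in the control and the exosome group, by role (x axis). Means run from 1.05 FPKM for KIF1A to 139 FPKM for CCNB1.

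The mitotic rows moved together by library, inside the groups as well as between them. Their median difference from the control mean of each gene was 0.06, -0.02 and -0.05 on the log2 scale in control replicates 1, 2 and 3 and 0.20, 0.08 and 0.12 in exosome replicates 1, 2 and 3. All 3 exosome medians lay above the 3 control medians, with exosome replicate 2 only slightly above control replicate 1. Of the 35 rows 23 were highest in exosome replicate 1 (65.7%, beside 21.2% of all genes tested) and 21 lowest in control replicate 3 (60.0%, beside 15.9%). Within the control group alone, replicate 1 was the highest in 27 of the 35 (77.1%, beside 36.5%). The control medians thus spanned 0.11 on the log2 scale, against 0.13 between the group means of these medians, and the source of the spread was not tested.

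**Figure D4:**
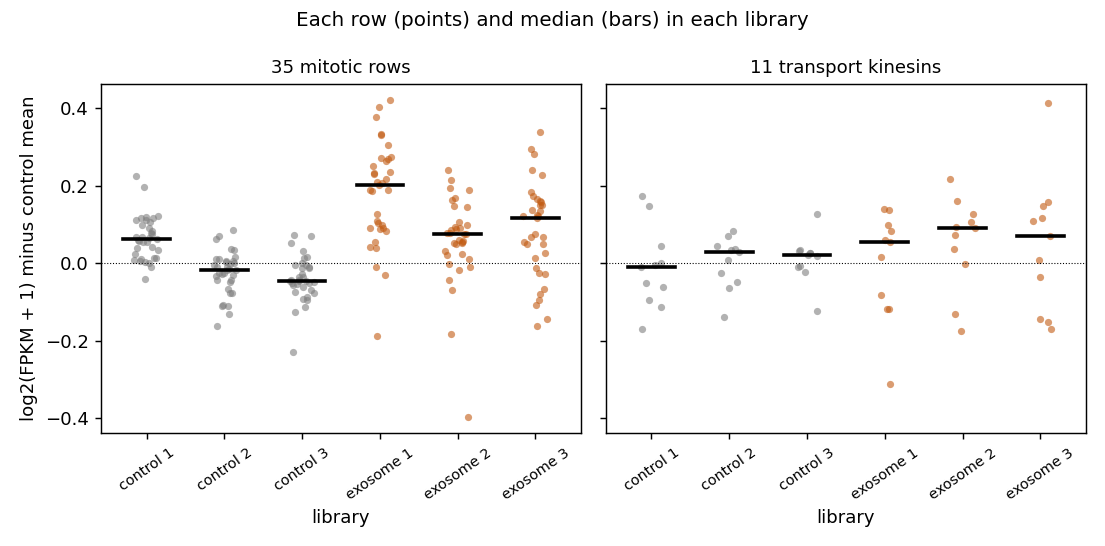
Log2(FPKM + 1) minus the control mean of each gene (y axis) in the 6 libraries (x axis), for 35 mitotic rows and 11 transport kinesins; points are rows and bars are medians. Among mitotic rows exosome replicate 1 is highest (median 0.20) and control replicate 3 lowest (-0.05), while the transport medians run from -0.00967 to 0.09.

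The transport kinesins had library medians of -0.00967, 0.03 and 0.02 in the controls and 0.05, 0.09 and 0.07 with exosomes, so these too were higher in each exosome library. The order of the libraries differed, with exosome replicate 2 the highest here and exosome replicate 1 the highest among mitotic rows. The mitotic median minus the transport median was 0.07, -0.05 and -0.07 in the controls and 0.15, -0.02 and 0.05 with exosomes. The groups overlapped on this difference, because exosome replicates 2 and 3 both lay below control replicate 1. A separation of the mitotic rows from the transport kinesins by treatment was thus not larger than the spread between libraries. The mitotic median takes in all mitotic rows, and the difference was not computed for mitotic kinesins alone. Over the 10846 genes tested the library medians lay between -0.00549 and 0.00890.

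The number of the 52 rows at an unadjusted p under 0.05 depended on single libraries. It was 11 with all libraries, 10 of them higher and 1 lower (21.2% of the 52, beside 12.6% of all genes tested). Without exosome replicate 2 it was 19 (36.5% of the 52, beside 22.0% of all genes). With either control replicate 1 or exosome replicate 3 omitted it was 9 (17.3%, beside 9.98% and 12.1%). Without exosome replicate 1 it was 5 (9.62%, beside 7.39%) and without control replicate 2 it was 3 (5.77%, beside 7.39%), both near the share of all genes. Without control replicate 3 it was 1 (1.92%, beside 8.18%), below that share. With libraries scaled to equal FPKM sums it was 18 (34.6%, beside 13.9%), and in a fit blocked on replicate number 11 (21.2%, beside 12.3%). The mitotic median kept its sign, at 0.10 to 0.14 with any 1 library left out. The transport median was 0.03 without control replicate 1 or control replicate 3, and 0.06 with all libraries. In all of the 52 rows the 95% interval of the log2 change lay within 0.5 of 0, as in 89.3% of all genes tested.

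The other KIF and CENP symbols had intervals that spanned 0. KIF1BP, a protein that binds kinesins and keeps them off microtubules, was at 16.1, 15.4 and 16.6 FPKM in the controls and 17.8, 17.4 and 16.3 with exosomes (log2 change 0.09). KIF24, a centriole kinesin, was at 2.43, 2.60 and 2.46 FPKM in the controls and 3.15, 2.41 and 2.71 with exosomes (0.10, but 0.03 without exosome replicate 1 and 0.17 without exosome replicate 2). KIF12 was at 5.53, 4.50 and 4.03 FPKM in the controls and 4.69, 3.67 and 4.19 with exosomes (-0.13, but -0.03 without control replicate 1 and -0.21 without control replicate 3). In all 3 genes the groups overlapped. KIF7, a cilium kinesin of Hedgehog signalling, was at 9.36 ± 0.416 and 9.46 ± 0.325 FPKM, CENPJ at 13.4 ± 0.538 and 13.5 ± 1.45, and CENPV at 51.2 ± 7.53 and 51.2 ± 4.63 (SD, n = 3 per group). The log2 changes of these 3 were 0.01, 0.00411 and 0.00352, and each turned negative without at least 1 of the libraries.

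Another 8 rows carry a matching symbol only in the reference table and were kept apart from the 52. BUB1B, the checkpoint kinase BubR1, was at 24.9, 23.4 and 24.0 FPKM in the controls and 30.7, 26.5 and 30.3 with exosomes, with no overlap (log2 change 0.26, adjusted p = 0.251 in limma). CDK1, the kinase that cyclin B1 switches on, listed under its older name CDC2, was at 106, 95.2 and 82.4 FPKM in the controls and 125, 97.2 and 114 with exosomes. Exosome replicate 2 lay among the controls (log2 change 0.24). The transport kinesin KIF13A was at 9.92, 10.6 and 10.6 FPKM in the controls and 11.5, 12.6 and 11.03 with exosomes, above all controls (log2 change 0.16). CENPU, CENPC, CENPS, the separate KIFC1 row and KIF16B had log2 changes of 0.13, 0.10, 0.03, 0.06 and 0.06, with overlap. Of the 8 rows 2 were higher without overlap and 0 lower, beside 8.29% and 10.4% of all genes tested. With these rows added, the mitotic median over 41 rows stayed at 0.11 and the transport median over 13 at 0.06.

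Genes that work with the 52 were also counted, in lists that hold none of them. Of 44 kinetochore and spindle partners (56 symbols searched) 38 had a positive change, with a median of 0.10 on the log2 scale. At an unadjusted p under 0.05, 6 were higher and 0 lower, beside 5.06% higher and 7.5% lower of all genes tested, and 0 passed over all genes. Without overlap 6 of the 44 were higher (13.6%) and 0 lower, beside 8.29% and 10.4% of all genes tested. DLGAP5, a spindle assembly factor, was at 26.6, 26.5 and 25.3 FPKM in the controls and 32.4, 29.3 and 32.5 with exosomes, with no overlap (log2 change 0.25, adjusted p = 0.234 in limma). ANLN, the scaffold of the cleavage furrow, was at 57.0 ± 0.933 and 64.0 ± 2.14 FPKM, and SPAG5, a spindle protein, at 16.1 ± 0.184 and 18.0 ± 0.105 FPKM (SD, n = 3 per group), both without overlap. The library medians of this list were 0.06, -0.02 and -0.05 in the controls and 0.19, 0.03 and 0.10 with exosomes, where exosome replicate 2 lay below control replicate 1.

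Cargo adaptors of kinesin and subunits of dynein, the motor that walks the opposite way, were on the lower side, with 20 of 25 negative (31 symbols searched) and a median log2 change of -0.05. With libraries scaled to equal FPKM sums 14 of 25 were negative and the median was -0.00525, beside 0.04 for all genes. At an unadjusted p under 0.05, 2 were lower and 0 higher, beside 7.5% and 5.06% of all genes tested. Without overlap 3 were lower and 2 higher (KLC2 and RHOT1), beside 10.4% and 8.29%. For 25 genes both counts are near the background. KLC4, a kinesin light chain, was at 25.5, 24.0 and 23.8 FPKM in the controls and 21.4, 21.8 and 21.0 with exosomes, with no overlap (log2 change -0.18, adjusted p = 0.289 in limma). The dynein light chains DYNLL2 and DYNLT3 had log2 changes of -0.17 each. Cell cycle brakes, in a list that also holds MDM2, showed no common direction, with 5 of 13 positive (18 symbols searched). The median of this list was -0.00913, and 0.04 with equal FPKM sums. MDM2, which restrains p53, was at 55.4 ± 0.690 and 63.2 ± 4.30 FPKM, CCNG2 at 14.8 ± 0.771 and 13.2 ± 0.525, and the antiproliferative gene BTG1 at 159 ± 3.74 and 148 ± 7.29 (SD, n = 3 per group). Of these 3, MDM2 was higher and CCNG2 lower without overlap, and 0 passed over all genes in limma. In the list of 13 there was 1 without overlap in each direction, beside 8.29% higher and 10.4% lower of all genes tested. For 13 genes this is near the background.

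By symbol all 51 genes were placed in the RefSeq table of Sscrofa11.1, the build named in the submitters' notes, on 18 chromosomes. CCNB1 (chromosome 16, 47338239 to 47348385) and CENPH (47353319 to 47378746) lie 4.93 kb apart, with log2 changes of 0.17 and 0.07. KIF3C (chromosome 3, 112963424 to 113014632) lies between CENPA and CENPO, at 691 kb and 954 kb, and was the 1 of these 3 with a change beyond 0.1 in size on the log2 scale (-0.21, against -0.01 and 0.04). BUB1 is on the same chromosome (45585188 to 45623240), TTK on chromosome 1 (86076576 to 86125334) and CCNA2 on chromosome 8 (102260346 to 102266274).

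**Figure D5:**
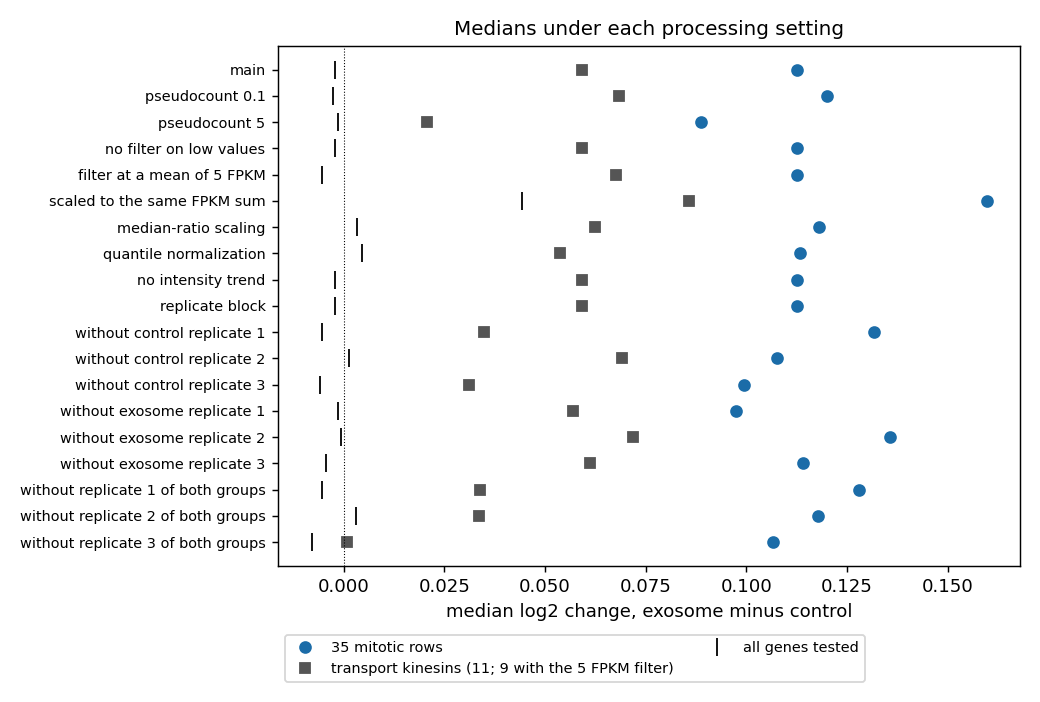
Median log2 change (x axis) of the 35 mitotic rows, the transport kinesins and all genes tested under the main and 18 other settings (y axis). The mitotic median stays between 0.09 and 0.16 and lies right of the transport median, which runs from 0.000903 to 0.09.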

How the data were processed

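The values are FPKM made by the authors, 1 column per library. The submitters' processing notes name bcl2fastq 1.8.4, TopHat, Cufflinks and the build Sscrofa11.1. Versions of the aligner and quantifier, and the annotation, were not given in the sources used here. As the deposited header has no unit, FPKM was inferred from Cufflinks and from the range of the values. The table held 10916 rows, of which 10915 had values, the lowest 0.0882. Whole reads were not recovered from these FPKM values, and no count model was run.

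Columns were matched to samples by title. Values were tested as log2(FPKM + 1) where the mean was at least 1 FPKM (10846 genes, all 52 members) with limma 3.58.1 in R 4.3.3 (intensity trend, two-sided, Benjamini-Hochberg adjustment over all genes tested, threshold 0.05). This scale understates changes of low genes. Genes named are, in each role, the 4 with the smallest p and the 2 with the highest mean, 3 by p in each partner list and 3 by level in each marker list; others were chosen after their values were seen. Members and lists were chosen with earlier results of these data known. The fit was tested on simulated data. Of the member rows 42 had the same symbol in the reference table, 8 had none and 2 another. Figures used Python 3.11.15 and matplotlib 3.10.9. Sequence features of the genes are not analysed here.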

Additional observations from a re-analysis of the deposited data

How the results depend on the processing

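The mitotic median stayed positive, between 0.09 and 0.16, in the fits run, and 29 to 34 of the 35 rows were positive. These fits reuse the same libraries, and the rows moved together by library. A steady sign across the fits is thus not replication. Genes past the threshold numbered 0 with all libraries and from 0 to 297 with libraries left out (297 without exosome replicate 2, 58 with both replicates 2 omitted); members past it numbered from 0 to 1, CCNA2 at 0.30. Members at an unadjusted p under 0.05 numbered 11, and from 1 to 19 with libraries left out (5, 6 and 3 with both replicates 1, 2 or 3 omitted, or 9.62%, 11.5% and 5.77% of the 52, beside 5.95%, 15.1% and 8.18% of all genes). They numbered 18 with libraries scaled to equal FPKM sums, which moved the median of all genes to 0.04 and the higher calls among all genes from 549 of 1362 to 1089 of 1509. The transport median of 0.0593 was 0.0208 with a pseudocount of 5, 0.0858 with equal sums, and from 0.0310 to 0.0718 with 1 library left out (0.0339, 0.0337 and 0.000903 with both replicates 1, 2 or 3 omitted). The cause was not tested.

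Signs turned for genes near 0. CENPW was -0.0357 when control 2 was omitted, and it ran from -0.173 (exosome 1 omitted) to 0.120 (exosome 2 omitted), with -0.153 when both replicates 1 were. CENPJ ran from -0.0763 (exosome 3 omitted) to 0.0564 (exosome 1 omitted), with -0.0728 when both replicates 3 were. CENPV ran from -0.0895 (control 3 omitted) to 0.113 (control 1 omitted), and was at -0.158 and -0.000174 when both replicates 3 or 2 were. KIF7 ran from -0.00632 (exosome 1 omitted) to 0.0467 (control 1 omitted), with -0.00815 when both replicates 3 were. Depth is unknown, so what it limits cannot be stated.

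Deviations of same-numbered libraries from their group means correlated at 0.16, 0.14 and -0.07 over the genes tested. Pairs with different numbers ran from -0.27 to 0.17. No label pairs the libraries, and with 3 per group these correlations cannot show whether same-numbered libraries shared a batch or a uterus. With the replicate block 0 genes passed, 11 members had an unadjusted p under 0.05 and the medians were 0.11 and 0.06.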
